A study of Mus musculus with 8 samples.

Results

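Cxcl10, the gene of an interferon-induced chemokine, was described together with 8 further genes of the interferon and chemokine response in mouse spermatocytes with and without mitofusin 2 (MFN2), a protein of the outer mitochondrial membrane that fuses mitochondria and tethers them to the endoplasmic reticulum. The 9 genes were Cxcl10, Cxcl9, Ccl2, Ccl5, Ifit1, Ifit3, Isg15, Usp18 and Irf7, out of 54532 genes in the deposited table. They were chosen around Cxcl10 because its measured level was higher in the MFN2 cKO libraries, so the differences between genotypes below are a description of these genes and carry no test. RNA-seq was made from 8 libraries, 1 for each combination of genotype, stage and age. The spermatocytes were pachytene (P) or leptotene and zygotene (L/Z) cells of C57BL/6J males at postnatal day (PD) 24 or PD 52, separated by sedimentation through a gradient of bovine serum albumin. MFN2 WT mice are labelled Mfn2 loxp/loxp without Cre, and MFN2 cKO mice Mfn2 loxp/loxp; Stra8-Cre, so both groups carried the loxp allele. The study's text also allows controls with a wild-type allele beside the floxed one and in places gives another adult age, and the labels are followed here. The Stra8 promoter drives Cre in differentiating germ cells, so that somatic cells of the cKO testis are not its target. Whether a library came from 1 animal or a pool is not given in the sources used here. It is also not given whether the P and L/Z libraries of one genotype and age shared animals.

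Interferons are signalling proteins of the antiviral response. Type I interferons bind a receptor made of Ifnar1 and Ifnar2, and a complex that includes Stat2 and Irf9 then binds interferon-stimulated response elements (ISRE) in front of target genes. Interferon-gamma acts through gamma-activated sites (GAS), and NF-kB acts with either route on many chemokine genes. In the testis, Sertoli cells, Leydig cells and macrophages can make such chemokines when stimulated.

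The libraries held between 14340665 and 20379950 reads on genes. The targeted gene Mfn2 had FPKM (fragments scaled for transcript length and library depth) of 62.2 to 97.5 in MFN2 WT and 34.3 to 50.1 in MFN2 cKO, and was lower in MFN2 cKO in all 4 pairs of the same stage and age. The difference was smallest in P at PD 52, with 62.2 FPKM in MFN2 WT and 50.1 FPKM in MFN2 cKO. The pachytene genes Ldhc and Hspa2 were abundant in all 8 libraries, with Ldhc between 1494 and 2910 FPKM. The stage labels were less clearly borne out: of the 10 leptotene and zygotene markers, 5 were called higher in P and 2 higher in L/Z by limma, and the 10 markers summed to 138 to 231 FPKM in L/Z and 207 to 268 FPKM in P. Of the 11 pachytene markers, 4 were called higher in P and 1 higher in L/Z. All 12 Sertoli markers were called higher in P, whereas 11 of 13 macrophage markers and 9 of 10 round spermatid markers were called higher in L/Z. The fractions thus also differed in markers of other cells. Over all genes, 12.0% were called higher in P and 15.9% higher in L/Z. No stage call held without MFN2 WT at PD 24 or without MFN2 cKO at PD 52. In bulk RNA, fewer cells of a type and less RNA per cell cannot be told apart.

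Cxcl10 (ENSMUSG00000034855) lies on the reverse strand of chromosome 5 at 92346638 to 92348889 of GRCm38. Its neighbour Cxcl9 lies on the same strand at 92321347 to 92328079. Ifit3 (34583531 to 34588731) and Ifit1 (34640871 to 34650009) are both on the forward strand of chromosome 19. Isg15 is on chromosome 4 (156199424 to 156200818), Irf7 on chromosome 7 (141262706 to 141266481) and Usp18 on chromosome 6 (121245906 to 121270917), while Ccl2 (82035571 to 82037453) and Ccl5 (83525778 to 83530518) share chromosome 11. The deposited gene lengths equal the union of each gene's annotated exons.

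Promoters of 6 of the 9 genes were matched in the RefSeq table for GRCm38.p6, each with 250 bases before and 50 bases after the start. The searched motifs were the ISRE core GAAANNGAA, the GAS element TTCNNNGAA and the kappaB consensus, each on both strands. Of all 32851 promoters in that table, 8.56% held the ISRE core, 8.30% the GAS element and 4.51% the kappaB consensus. Promoters of 4 genes are shown 5′ to 3′ on the gene's strand, because they set the high chemokine gene Cxcl10 beside its low neighbour Cxcl9, and because Ifit3 and Ifit1 were higher in MFN2 cKO in every pair. Capitals mark the motif matches. They span chr5:92348840-92349139 for Cxcl10, chr5:92328030-92328329 for Cxcl9, chr19:34583279-34583578 for Ifit3 and chr19:34640639-34640938 for Ifit1.
Cxcl10: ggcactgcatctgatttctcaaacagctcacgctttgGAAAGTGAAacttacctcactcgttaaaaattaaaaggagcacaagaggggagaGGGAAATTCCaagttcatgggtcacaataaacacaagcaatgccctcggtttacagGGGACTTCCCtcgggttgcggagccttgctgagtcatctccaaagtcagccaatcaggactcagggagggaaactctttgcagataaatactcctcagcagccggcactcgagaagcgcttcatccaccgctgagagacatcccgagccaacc
Cxcl9: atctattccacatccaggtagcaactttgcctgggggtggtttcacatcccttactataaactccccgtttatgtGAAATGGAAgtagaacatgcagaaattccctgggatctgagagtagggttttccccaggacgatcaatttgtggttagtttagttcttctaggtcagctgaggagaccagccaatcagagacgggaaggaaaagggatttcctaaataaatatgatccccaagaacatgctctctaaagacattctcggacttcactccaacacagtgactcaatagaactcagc
Ifit3: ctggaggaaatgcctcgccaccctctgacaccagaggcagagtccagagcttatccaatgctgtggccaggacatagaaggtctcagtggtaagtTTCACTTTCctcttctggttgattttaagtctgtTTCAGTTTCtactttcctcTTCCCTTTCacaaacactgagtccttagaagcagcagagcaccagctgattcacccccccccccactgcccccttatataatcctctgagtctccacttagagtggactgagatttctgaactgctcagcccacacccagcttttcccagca
Ifit1: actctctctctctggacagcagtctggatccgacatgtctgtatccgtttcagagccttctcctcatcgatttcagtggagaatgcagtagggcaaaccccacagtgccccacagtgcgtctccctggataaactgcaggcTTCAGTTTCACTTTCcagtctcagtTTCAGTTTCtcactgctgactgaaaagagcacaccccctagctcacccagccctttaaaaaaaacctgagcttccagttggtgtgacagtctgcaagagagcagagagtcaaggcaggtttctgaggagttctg

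The Cxcl10 promoter held 1 ISRE core, whose first base lies 213 bases before the start, and 2 kappaB matches, beginning 159 and 103 bases before it. The Cxcl9 promoter held 1 ISRE core, 175 bases before the start, and no kappaB match. In Ifit3 there were 3 ISRE cores on the opposite strand, beginning 155, 121 and 102 bases before the start. In Ifit1 there were 3 on the opposite strand as well, beginning 109, 103 and 84 bases before the start, of which the first 2 overlap. Isg15 also held 3 ISRE cores, overlapping each other and beginning 78, 72 and 66 bases before the start. Irf7 held no match, and none of the 6 promoters held a GAS element, which says only that these letters are not in these windows.

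Cxcl10 encodes a chemokine that draws activated T cells through the receptor Cxcr3. In P spermatocytes its level was 6.05 FPKM in MFN2 WT and 31.6 FPKM in MFN2 cKO at PD 24, and 4.57 and 35.4 FPKM at PD 52. The L/Z spermatocytes had 12.1 and 65.7 FPKM at PD 24, and 2.14 and 12.7 FPKM at PD 52. All 4 MFN2 cKO libraries lay above all 4 MFN2 WT libraries, although the lowest MFN2 cKO library and the highest MFN2 WT library differed by only 1.05-fold (95% counting interval 0.92 to 1.20). Within the pairs Cxcl10 was 5.22-fold (4.58 to 5.97), 7.74-fold (6.57 to 9.17), 5.44-fold (4.95 to 5.99) and 5.94-fold (4.62 to 7.74) higher in MFN2 cKO, in P PD 24, P PD 52, L/Z PD 24 and L/Z PD 52. These intervals cover counting error only and come from 72 to 2625 reads per library. On the log2(FPKM + 1) scale the mean change was 2.35 ± 0.26 (SD, n = 4 pairs). Cxcl10 was 1 of 48 genes that were at least 2-fold higher in every pair, and stood sixth among them by mean change, after 3 pseudogenes and the steroidogenic genes Hsd3b6 and Cyp17a1. The background share for that pattern was 0.227% of the 21175 genes that exceeded FPKM 1 in some library, and 0.656% had all MFN2 cKO above all MFN2 WT libraries. Both shares are given for reading and are not support, since Cxcl10 was chosen on this contrast.

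Between single libraries the level of Cxcl10 also differed with age and stage, although limma called it for neither, as given below. From PD 24 to PD 52 it was 5.66-fold lower in L/Z of MFN2 WT and 5.18-fold lower in L/Z of MFN2 cKO. In P the same comparison gave ratios of 0.75 (0.62 to 0.92) and 1.12 (1.03 to 1.21). L/Z exceeded P at PD 24 by 2.0-fold in MFN2 WT and 2.08-fold in MFN2 cKO, and P exceeded L/Z at PD 52 by 2.14-fold and 2.79-fold. Each genotype thus showed the highest level in L/Z at PD 24 and the lowest in L/Z at PD 52.

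**Figure D1:**
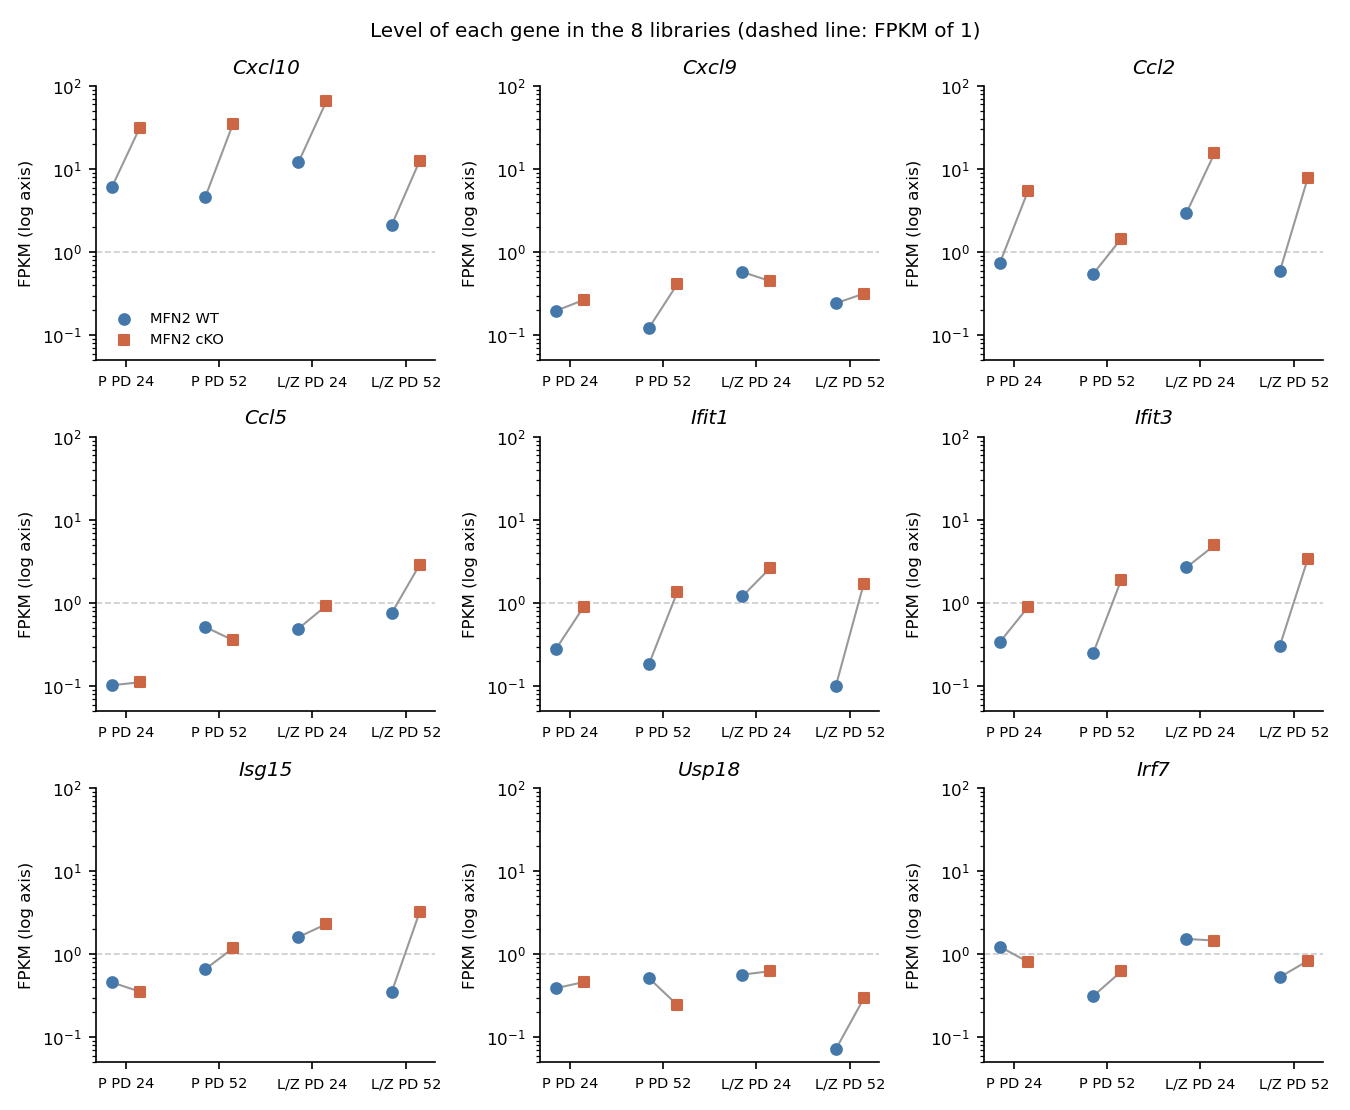
FPKM of the 9 genes on a log axis in the 8 libraries, with MFN2 WT (blue circles) and MFN2 cKO (orange squares) of one stage and age joined by a line and a dashed line at FPKM 1. Cxcl10 runs from 2.14 to 65.7 FPKM and is higher in MFN2 cKO in each pair, whereas Cxcl9 and Usp18 stay below FPKM 1 in all libraries.

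Cxcl9, the neighbouring chemokine gene and a second ligand of Cxcr3, was low throughout. With MFN2 WT given first, the libraries had 0.20 and 0.27 FPKM in P at PD 24, 0.12 and 0.41 in P at PD 52, 0.58 and 0.45 in L/Z at PD 24, and 0.24 and 0.32 in L/Z at PD 52. No library held more than 33 reads of it. The groups overlapped, and the counting interval of the ratio included 1 in all pairs except P PD 52 (3.32-fold, 1.26 to 10.2). Cxcl10 exceeded Cxcl9 per length by 8.77- to 36.8-fold in MFN2 WT and by 40.0- to 146-fold in MFN2 cKO.

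Ccl2 encodes the chemokine that draws monocytes through the receptor Ccr2. In P its levels were 0.74 FPKM in MFN2 WT and 5.39 FPKM in MFN2 cKO at PD 24, and 0.55 and 1.45 FPKM at PD 52. In L/Z they were 2.98 and 15.5 FPKM at PD 24, and 0.59 and 7.81 FPKM at PD 52. MFN2 cKO was the higher library of each pair, by 7.27-fold (4.35 to 12.9), 2.65-fold (1.22 to 6.22), 5.19-fold (3.96 to 6.91) and 13.3-fold (7.01 to 28.4) in the order given for Cxcl10. The groups overlapped across pairs, because MFN2 WT L/Z at PD 24 lay above MFN2 cKO P at PD 52. The ratio for P PD 52 fell below 2-fold on the log2(FPKM + 1) scale, which understates the change of low genes.

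Ccl5, a chemokine that draws T cells and monocytes, showed a different pattern. With MFN2 WT given first, the libraries had 0.10 and 0.11 FPKM in P at PD 24, 0.52 and 0.36 in P at PD 52, 0.50 and 0.94 in L/Z at PD 24, and 0.77 and 2.92 in L/Z at PD 52. L/Z of MFN2 cKO at PD 52 was the one library above FPKM 1, 3.82-fold (1.93 to 8.23) above its MFN2 WT partner. In the other 3 pairs the interval included 1, and in P at PD 24 each library held 2 reads.

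Ifit1 and Ifit3 encode tetratricopeptide proteins that bind foreign RNA and restrict its translation. Ifit1 had 0.28 and 0.91 FPKM in P at PD 24, 0.19 and 1.35 in P at PD 52, 1.22 and 2.67 in L/Z at PD 24, and 0.10 and 1.73 in L/Z at PD 52, MFN2 WT given first. Ifit3 had 0.34 and 0.89, 0.25 and 1.90, 2.70 and 4.98, and 0.31 and 3.41 FPKM in the same order. Both were higher in MFN2 cKO in all 4 pairs, with every counting interval above 1, and in both the groups overlapped because MFN2 WT L/Z at PD 24 was high. Their ratios were larger at PD 52 than at PD 24. For Ifit1 they were 3.25-fold (1.78 to 6.28) and 7.18-fold (3.39 to 17.5) in P, and 2.20-fold (1.61 to 3.04) and 17.2-fold (6.40 to 64.8) in L/Z. For Ifit3 they were 2.62-fold (1.30 to 5.64) and 7.58-fold (3.41 to 19.9) in P, and 1.84-fold (1.41 to 2.42) and 11.1-fold (5.41 to 26.6) in L/Z. The intervals of the ages overlapped in P and did not overlap in L/Z, and the largest ratio of Ifit1 rests on 4 reads against 67. Ifit3 exceeded Ifit1 per length by 1.22- to 3.04-fold in MFN2 WT, and the ratio was 0.98 to 1.98 in MFN2 cKO.

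Isg15, a ubiquitin-like protein that is attached to other proteins after interferon, and Usp18, the protease that removes it and that also dampens signalling from the type I receptor, did not follow Cxcl10 in all pairs. Isg15 had 0.46 FPKM in MFN2 WT and 0.36 in MFN2 cKO in P at PD 24, 0.66 and 1.18 in P at PD 52, 1.61 and 2.31 in L/Z at PD 24, and 0.35 and 3.26 in L/Z at PD 52. Its interval excluded 1 only in L/Z at PD 52, with 9.22-fold (3.30 to 35.6). Usp18 had 0.39 and 0.46, 0.51 and 0.25, 0.57 and 0.63, and 0.07 and 0.29 FPKM in the same order. Its interval excluded 1 only in L/Z at PD 52 as well (4.10-fold, 1.11 to 22.6), where 3 reads stood against 12.

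Irf7, a transcription factor that amplifies type I interferon production, had 1.23 FPKM in MFN2 WT and 0.81 in MFN2 cKO in P at PD 24, 0.31 and 0.62 in P at PD 52, 1.53 and 1.46 in L/Z at PD 24, and 0.53 and 0.83 in L/Z at PD 52. The ratio was 0.66 (0.46 to 0.92) in P at PD 24 and 1.98 (1.10 to 3.67) in P at PD 52, and both L/Z intervals included 1. It was the one gene of the 9 with an interval wholly below 1 in any pair.

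**Figure D2:**
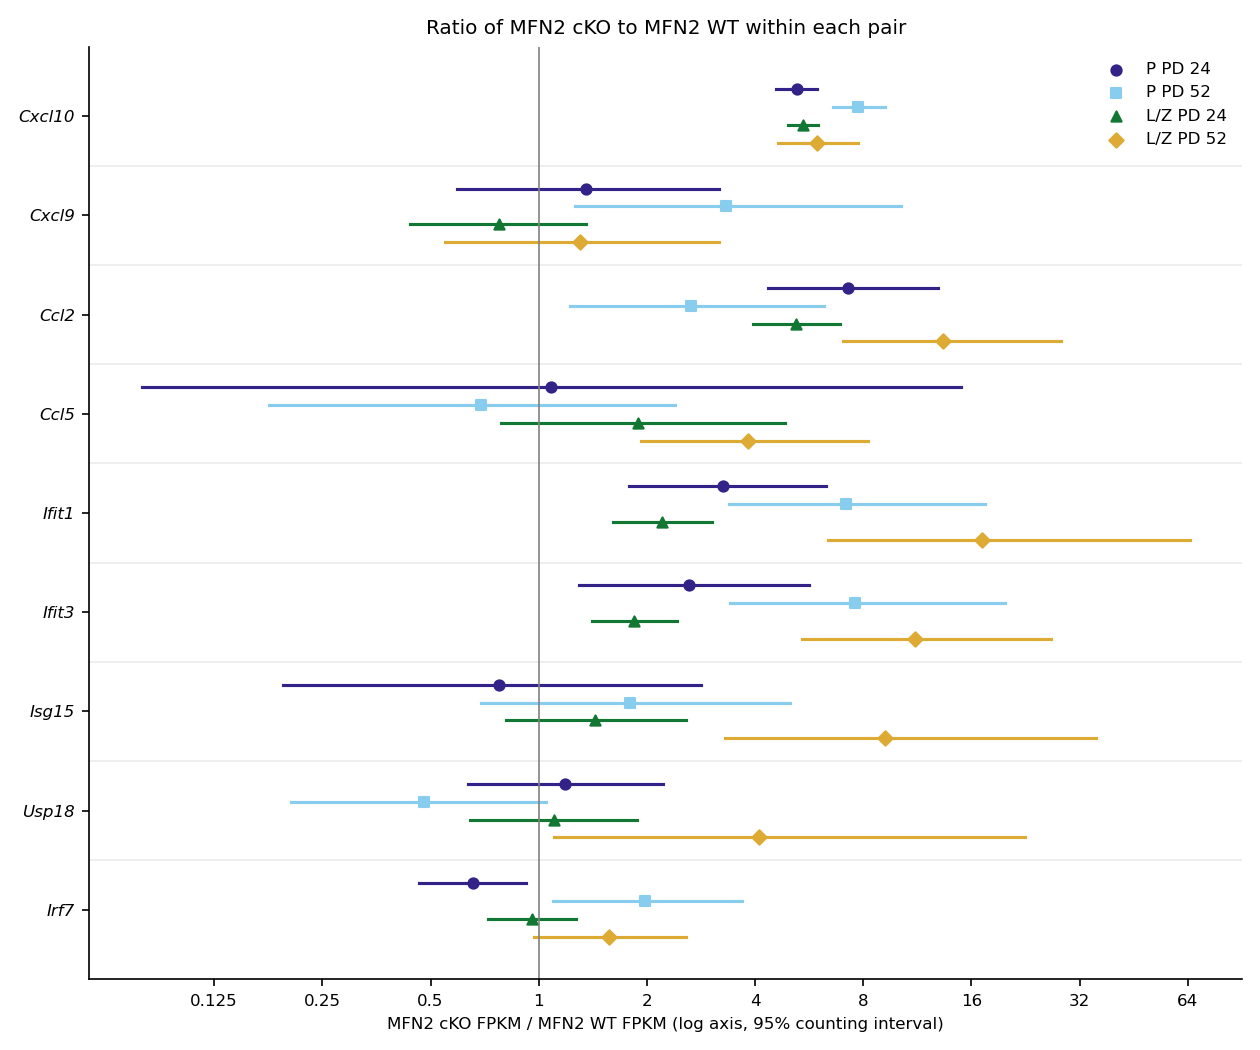
Ratio of MFN2 cKO to MFN2 WT FPKM for each of the 9 genes on a log axis, with one symbol per stage and age and bars for the exact 95% interval of counting error. The 4 Cxcl10 ratios lie between 5.22 and 7.74, while those of Ifit1, Ifit3 and Isg15 are farthest to the right in L/Z at PD 52.

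Of the 9 genes, 7 passed the filter, which asks for an FPKM over 1 in some library, and Cxcl9 and Usp18 did not. Counted pair by pair at 2-fold or more on the log2(FPKM + 1) scale, Cxcl10 and Ccl2 were higher in P at PD 24, where 1.79% of all genes tested were. Cxcl10 and Ifit3 were higher in P at PD 52 (background 5.21%), Cxcl10 and Ccl2 in L/Z at PD 24 (3.45%), and 6 genes in L/Z at PD 52 (4.83%), namely Cxcl10, Isg15, Ifit1, Ifit3, Ccl2 and Ccl5. Of the 9 genes, 3, 5, 6 and 6 exceeded FPKM 1 in a library of these pairs, in that order. Apart from Cxcl10, and Ccl2 in L/Z at PD 24, each gene counted was below FPKM 1 in MFN2 WT. Such genes passed the filter of the pair only through MFN2 cKO, where they were high. The P PD 52 count became 4 with a pseudocount of 0.1 or at 1.5-fold, and the L/Z PD 24 count became 4 at 1.5-fold. Higher in every pair at any size were Cxcl10, Ifit1, Ifit3 and Ccl2, a pattern seen in 7.74% of all genes tested. Cxcl10 made up 50.9% to 61.8% of the summed FPKM of the 9 genes in the MFN2 WT libraries of P and of L/Z at PD 24 and 69.5% to 82.5% in their MFN2 cKO partners. In L/Z at PD 52 it made up 41.9% and 38.2%, so there the other genes took the larger part of the sum.

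Stage and age were not used to choose the genes and were tested with limma over all genes, for the 7 genes that passed the filter. Ccl2 fell by 1.11 ± 0.29 (SE) on the log2 scale in P against L/Z (adjusted p = 0.029) and was lower in P in all 4 combinations of genotype and age. Ifit3 was lower in P by the same test (−0.95 ± 0.28, adjusted p = 0.044), also in 4 of 4. In MFN2 WT at PD 52 alone, the counting interval of the P to L/Z ratio included 1 for both genes. There the ratio was 0.93 (0.35 to 2.50) for Ccl2 and 0.82 (0.25 to 2.58) for Ifit3. The background was 15.9% of genes lower and 12.0% higher in P. Cxcl10 was not called by stage (0.08 ± 0.42, adjusted p = 0.90), with P higher in 2 combinations and lower in 2. The Ccl2 call held in 6 of 12 alternatives (adjusted p from 0.0058 to 0.34) and the Ifit3 call in 4 of 12 (0.016 to 0.24). Here and for age, 1 of the 12, a further median-of-ratios scaling, had equal factors and repeats the fit reported. Both were lost when the P and L/Z libraries of MFN2 WT at PD 24, of MFN2 cKO at PD 24 or of MFN2 cKO at PD 52 were left out. The macrophage markers lay higher in L/Z too, and their part in these differences was not tested.

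For age, Ccl2 fell by 0.94 ± 0.24 (SE) from PD 24 to PD 52 (adjusted p = 0.046) and was lower at PD 52 in 4 of 4 combinations of genotype and stage, against 4.91% of all genes lower and 11.2% higher. That call held in 5 of 12 alternatives (adjusted p from 0.029 to 0.43), and was lost without the L/Z libraries of MFN2 WT or without the P or L/Z libraries of MFN2 cKO. In P of MFN2 WT the counting interval of the Ccl2 ratio, PD 52 to PD 24, included 1 (0.74, 0.30 to 1.71). The 6 others missed the threshold, among them Cxcl10 with −1.13 ± 0.45 (adjusted p = 0.12), lower at PD 52 in 3 of 4 combinations, and Irf7 with −0.52 ± 0.16 (adjusted p = 0.079), lower in 4 of 4.

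The rest of the pathway was read from 201 genes in 9 lists, none of them one of the 9 genes, of which 126 passed the filter. With the pair as a block, limma called 0 of the 126 for genotype in either direction, against 0.0803% of all genes called higher and 0.00472% called lower in MFN2 cKO. At an unadjusted p under 0.05 there were 41, all 41 higher in MFN2 cKO. Over all 21175 genes tested there were 1480, of which 902 were higher. With limma voom on the recovered reads 8 of the 126 were called higher, against 108 of all 21175 genes. The median change was 0.25 over the 126 genes and −0.04 over all genes tested. Higher in every pair were 53 and lower in every pair 1, where 1638 and 1199 of all 21175 genes were. All MFN2 cKO lay above all MFN2 WT libraries in 8 of the 126, and in 0.656% of all genes.

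Among the interferon ligands only Ifnb1, the type I interferon beta gene, passed the filter, of 11 listed. In P it had 0 FPKM in both MFN2 WT libraries, and 0.07 and 0 FPKM in MFN2 cKO at PD 24 and PD 52. In L/Z it had 0.42 and 0.68 FPKM at PD 24 and 0.18 and 1.28 FPKM at PD 52, MFN2 WT first, from at most 14 reads. Ifng, the interferon-gamma gene, had 1 read in all 8 libraries together. The 4 listed interferon alpha genes were at 0 in all libraries.

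Of the receptor and kinase list, 3 of 10 tested genes (1480 of 21175 among all genes) had an unadjusted p under 0.05, all 3 higher, with a median change of 0.18. Socs3, a feedback inhibitor of cytokine receptor signalling, had 15.01 to 42.1 FPKM in MFN2 WT and 44.1 to 115 FPKM in MFN2 cKO, a change of 1.52 ± 0.18 (SE; adjusted p = 0.060). The receptor chains Ifnar2 and Il10rb changed by 0.51 each, with adjusted p of 0.56 and 0.61. Ifnar1 had 3.69 to 6.71 FPKM in MFN2 WT and 2.43 to 6.35 in MFN2 cKO. Of the transcription factors, 2 of 9 had an unadjusted p under 0.05. Irf1 (0.75, adjusted p = 0.28) and Irf8 (0.71, adjusted p = 0.32) had the largest changes, whereas Stat2 (−0.02) was higher in MFN2 cKO in 1 of 4 pairs and Irf9 (0.22) in 4 of 4, with the groups overlapping in both. Irf5 changed by 0.35. In the nucleic acid sensing list 2 of 9 had an unadjusted p under 0.05, Tmem173, which encodes STING (0.55), and Trim25 (0.46), and Samhd1 changed by 0.27.

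The largest list held interferon-stimulated genes other than the 9. Of its 34 tested genes 14 (1480 of 21175 among all genes) had an unadjusted p under 0.05, all 14 higher, with a list median change of 0.35. Lgals3bp had the largest change (1.402 ± 0.17, adjusted p = 0.068), with 0.96 to 5.39 FPKM in MFN2 WT and 4.61 to 13.3 FPKM in MFN2 cKO. Ly6e followed with 1.22 ± 0.31 (adjusted p = 0.37) and Ifitm3, which blocks viral entry, with 1.11 ± 0.30 (adjusted p = 0.44). Pair by pair, 2 of 22 genes of the list were at least 2-fold higher in P at PD 24, 6 of 21 in P at PD 52, 4 of 32 in L/Z at PD 24 and 9 of 28 in L/Z at PD 52, against 1.79%, 5.21%, 3.45% and 4.83% of all genes. Of the interferon-gamma GTPases and antigen processing genes, 4 of 19 had an unadjusted p under 0.05, led by the GTPase Irgm1 (1.15), the MHC class I light chain B2m (1.06) and the class I gene H2-Q4 (0.91).

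The other chemokines had the highest list median, 0.61, and 8 of 17 (1480 of 21175 among all genes) had an unadjusted p under 0.05, all 8 higher. Ccl7, which like Ccl2 draws monocytes, had 0.08 to 3.17 FPKM in MFN2 WT and 0.34 to 16.4 FPKM in MFN2 cKO (1.61 ± 0.39, adjusted p = 0.34). The neutrophil chemokines Cxcl1 and Cxcl2 changed by 1.54 ± 0.23 (adjusted p = 0.12) and 1.37 ± 0.29 (adjusted p = 0.27). The receptor genes for Cxcl10 and Ccl2 were low: Cxcr3 reached at most 0.24 FPKM and Ccr2 0.31 FPKM in any library. Of the 6 chemokine receptor genes tested, Cx3cr1, Cxcr4 and Ackr3 changed most, by 0.40, 0.24 and 0.17, and 0 had an unadjusted p under 0.05. Among NF-kB targets and cytokines 8 of 21 had one. Vcam1, an adhesion molecule for leukocytes, changed by 1.86 ± 0.21 (adjusted p = 0.057), with 0.86 to 3.25 FPKM in MFN2 WT and 3.67 to 18.8 FPKM in MFN2 cKO, and Tnf and Csf1 by 0.96 and 0.93. Vcam1, Socs3, Lgals3bp and Cxcl1 were the 4 genes of the lists that were at least 2-fold higher in every pair.

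**Figure D3:**
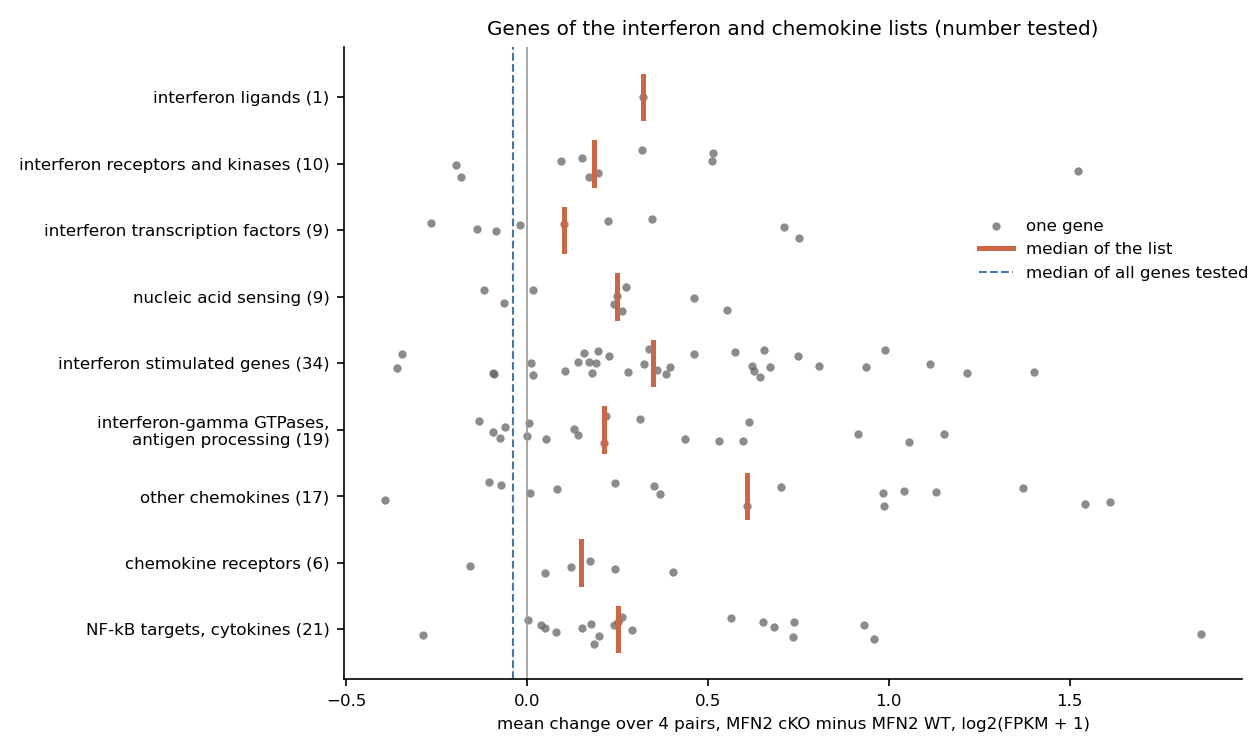
Mean change over the 4 pairs, MFN2 cKO minus MFN2 WT on the log2(FPKM + 1) scale, for the 126 tested genes of the 9 lists, with an orange bar at each list's median and a dashed line at the median of all genes. List medians run from 0.10 for the transcription factors to 0.61 for the other chemokines, against −0.04 for all genes.

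By stage, 20 of the 126 genes were called lower in P and 10 higher, against 15.9% and 12.0% of all genes, so the share called lower was that of the background and the share called higher was below it. The lower ones included 9 interferon-stimulated genes, with Ifitm3 at −1.88 (adjusted p = 0.011), and 7 other chemokines, with Ccl7 at −1.58 (adjusted p = 0.029) and Cxcl2 at −1.41 (adjusted p = 0.015). By age, 34 were called lower at PD 52 and 6 higher, against 4.91% and 11.2% of all genes. The lower ones included 9 NF-kB targets and cytokines, 6 interferon-stimulated genes and 6 interferon-gamma GTPase and antigen processing genes, among them H2-Q4 at −1.38 (adjusted p = 0.026). The stage calls over all genes fell to 0 without MFN2 WT at PD 24 or MFN2 cKO at PD 52, and the age calls to 0 without L/Z of MFN2 WT or without P or L/Z of MFN2 cKO.

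Among the marker lists, the Leydig list had the largest median rise in MFN2 cKO over the 4 pairs (1.84 on the log2 scale). The round spermatid list had the largest median fall (−1.37). All 8 Leydig markers were higher in MFN2 cKO in every pair (7.74% of all genes were), and limma called 3 of them (0.0803% of all genes). These calls were lost with a pseudocount of 0.1, with no FPKM filter and whichever pair was left out. Their summed level was 27.9 to 263 FPKM in MFN2 WT and 101 to 648 FPKM in MFN2 cKO, 5.39-, 2.47-, 5.08- and 3.58-fold higher in the order given for Cxcl10. Cyp17a1, the steroid 17-alpha-hydroxylase, and Insl3, an insulin-like hormone of Leydig cells, had 1.88 to 43.5 and 5.17 to 166 FPKM in MFN2 WT, and 22.4 to 204 and 37.8 to 273 FPKM in MFN2 cKO. Of the 13 tested macrophage markers of 18 listed, 11 were higher in MFN2 cKO in every pair and 0 were called, with 11 (1480 of 21175 among all genes) at an unadjusted p under 0.05. Their sum was 55.8 to 183 FPKM in MFN2 WT and 69.1 to 422 FPKM in MFN2 cKO, with ratios of 1.24, 0.96, 1.54 and 2.30 in the 4 pairs, and Aif1 alone made up 11.2% to 86.1% of it. Aif1 was lower in MFN2 cKO in 3 of 4 pairs. Without Aif1, a choice made after its values were seen, the sum was 11.4 to 52.9 FPKM in MFN2 WT and 27.6 to 208 FPKM in MFN2 cKO, 2.22-, 2.41-, 3.02- and 7.48-fold higher. Lyz2, a macrophage lysozyme, had 0.95 to 8.69 FPKM in MFN2 WT and 8.17 to 62.5 FPKM in MFN2 cKO.

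In the MFN2 cKO libraries, Cxcl10 had 31.6 FPKM in P at PD 24 beside a Leydig sum of 150 FPKM and a macrophage sum without Aif1 of 61.4 FPKM, and 35.4 FPKM in P at PD 52 beside 648 and 27.6 FPKM. In L/Z it had 65.7 FPKM at PD 24 beside 214 and 159 FPKM, and 12.7 FPKM at PD 52 beside 101 and 208 FPKM. With Aif1 kept, the macrophage sum was 69.1 and 79.0 FPKM in P at PD 24 and PD 52. In L/Z it was then 192 and 422 FPKM. Among these libraries Cxcl10 and the Leydig sum were both lowest in L/Z at PD 52. The Leydig sum was highest in P at PD 52, and Cxcl10 in L/Z at PD 24. In MFN2 WT, P at PD 52 had the highest Leydig sum, 263 FPKM, beside 4.57 FPKM of Cxcl10. The Leydig sum was 27.9 FPKM in P at PD 24, 42.1 in L/Z at PD 24 and 28.4 in L/Z at PD 52 of MFN2 WT. Cxcl10 had 6.05, 12.1 and 2.14 FPKM in those libraries. The largest MFN2 cKO to MFN2 WT ratios of Ccl2, Ccl5, Ifit1, Ifit3 and Isg15 were in the L/Z pair at PD 52. The part of Leydig cells and macrophages in these results was not tested.

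The endothelial markers summed to 3.34 to 4.65 FPKM in MFN2 WT and 4.76 to 7.56 FPKM in MFN2 cKO. The 18 lymphocyte markers summed to 3.68 to 6.15 and 4.39 to 7.59 FPKM, with the natural killer marker Ncr1 at 0 in all libraries and 3 of 18 tested. Sertoli markers summed to 27.7 to 644 FPKM in MFN2 WT and 72.7 to 750 FPKM in MFN2 cKO, and peritubular myoid markers to 49.1 to 173 and 37.8 to 208 FPKM. The round spermatid markers summed to 1173 to 10200 FPKM in MFN2 WT and 97.3 to 18949 FPKM in MFN2 cKO. Their MFN2 cKO to MFN2 WT ratios were 0.083, 0.44, 0.15 and 1.86, so they were lower in 3 pairs and higher in L/Z at PD 52, the pair with the largest ratios of those 5 genes. None of the tested Sertoli, myoid or lymphocyte markers had an unadjusted p under 0.05 for genotype.

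**Figure D4:**
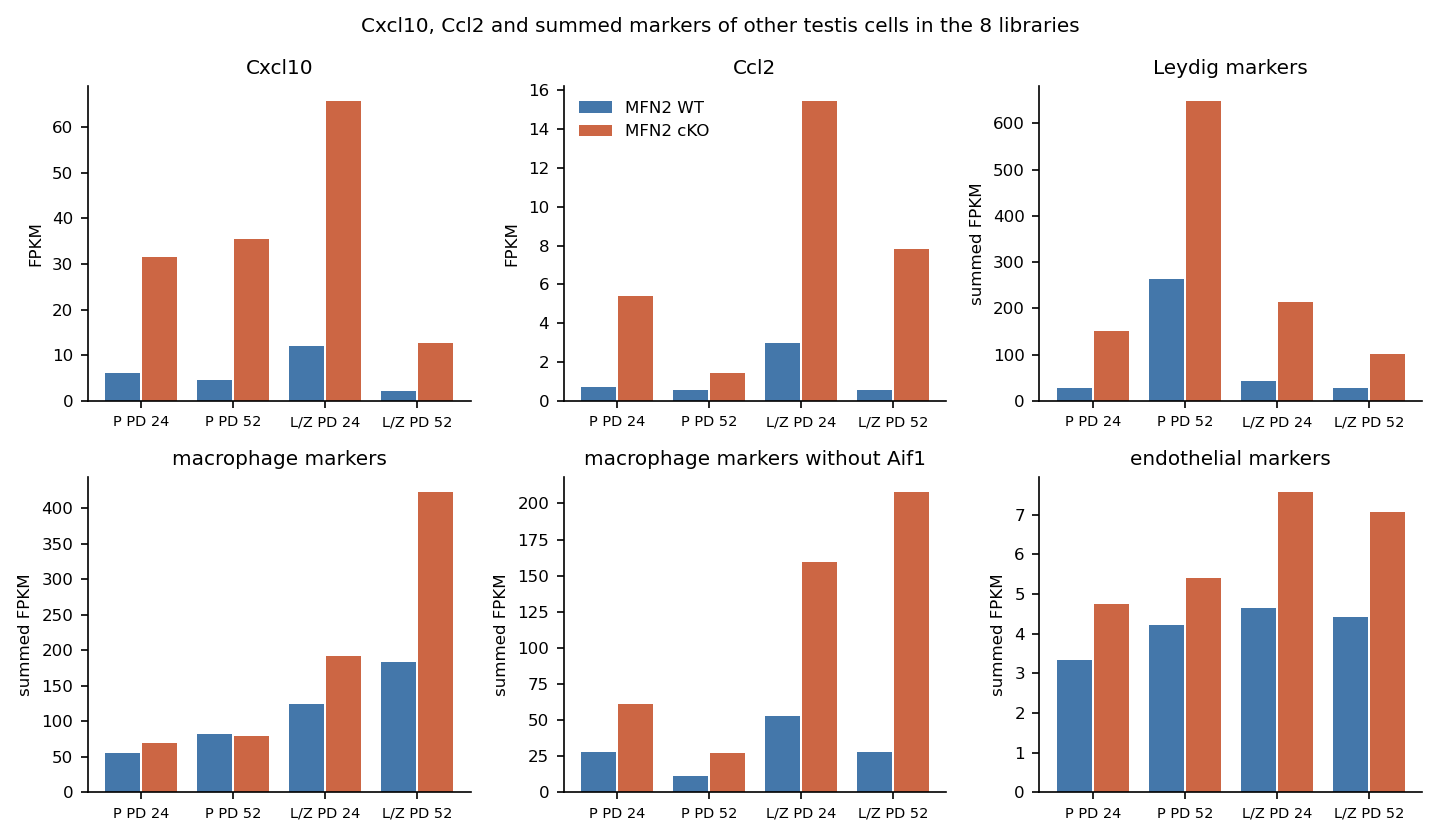
FPKM of Cxcl10 and Ccl2 and summed FPKM of Leydig, macrophage and endothelial markers in the 8 libraries, with MFN2 WT in blue and MFN2 cKO in orange. Cxcl10 is highest in L/Z of MFN2 cKO at PD 24 (65.7 FPKM), the Leydig sum in P of MFN2 cKO at PD 52 (648 FPKM) and the macrophage sum in L/Z of MFN2 cKO at PD 52 (422 FPKM).

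Across the 8 libraries, the genes most like Cxcl10 among 9194 protein-coding genes with FPKM above 5 in a library were, by Pearson's r of log2(FPKM + 1), Elovl5 (0.97), Hmgcs1 (0.97), Pdk4 (0.96), Sult1a1 (0.96), Lhcgr (0.95), Txnip (0.95) and Zfp36 (0.94). The 8 libraries share the contrast on which Cxcl10 was chosen, so the values are a description. Lhcgr is the luteinizing hormone receptor of Leydig cells, and Zfp36 encodes a protein that speeds the decay of cytokine mRNAs. Of the other 8 genes, Ifit1 was most like Cxcl10 (0.87), then Ccl2 (0.77) and Ifit3 (0.73). Cxcl9 (0.58), Usp18 (0.48), Isg15 (0.46) and Irf7 (0.44) followed, and Ccl5 was at −0.01.

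Reads shared with other genes could touch some of these values, because the libraries were unstranded. Cxcl10 lies within Art3 on the opposite strand, and 133 of its 2252 bases are also in an annotated Art3 exon. Art3 had 69.3 to 94.6 FPKM, and MFN2 cKO to MFN2 WT ratios of 0.93, 1.19, 1.25 and 1.15 in the 4 pairs. Of the windows of 50 bases in Ifit3, 51.2% are also found in Ifit3b, so reads of these genes are uncertain, and Ifit3b had at most 0.86 FPKM. For Ifit1 the share was 7.13% and for the other 7 genes between 0% and 3.96%. Irf7 overlaps Phrf1 on the opposite strand, which had 8.22 to 15.2 FPKM, with ratios of 0.88, 1.21, 0.71 and 0.78.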

How the data were processed

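The authors sequenced paired-end RNA-seq libraries (NEBNext Ultra RNA kit, which does not keep strand) and deposited FPKM per gene for 8 libraries. The submitters' processing notes name CASAVA 1.4, Bowtie 0.12.2 and the builds mm8 and mm9, but the deposited coordinates of the 9 genes equal those of GENCODE release M21 on GRCm38. FPKM multiplied by the deposited gene length gave whole reads for 100% of values (tolerance 0.01 reads), and median-of-ratios factors were already equal. Changes were log2(FPKM + 1), MFN2 cKO minus MFN2 WT, per pair of one stage and age. Genes whose FPKM exceeded 1 in some compared library were counted at 2-fold. Exact binomial (Clopper-Pearson) 95% intervals on reads cover counting error only. limma (3.58.1, R 4.3.3) was fitted over 21175 genes for genotype (block: pair), stage (block: genotype and age) and age (block: genotype and stage), with Benjamini-Hochberg adjustment at 0.05, after it was tested on simulated data. With 1 library per group, p-values measure the spread between these libraries, and the blocks assume that the genotype, stage or age difference is alike across them. The fits also treat the pairs as independent, which would not hold if libraries shared animals. The genes, lists and tests were chosen with earlier results of these data known. Named genes were the 9 genes, Mfn2, the 3 largest mean changes in each of the 9 lists, the 8 genes most like Cxcl10 and the 2 highest genes of each marker list, of which those of lesser bearing are given only within their list's sum. Some genes that this rule names are not reported here. Ifng, Ifnar1, Stat2, Irf9, Cxcr3, Ccr2, Hsd3b6, Aif1 without its list, Art3, Ifit3b and Phrf1 were named after their values were seen. Promoters are RefSeq sequences for GRCm38.p6. Alternatives were a pseudocount of 0.1, a 1.5-fold count, no filter, other scalings, protein-coding genes, other blocks, limma voom and leaving out pairs.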

Additional observations from a re-analysis of the deposited data

Results flagged for a closer look

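The change of Irf7 had opposite signs at the 2 ages. On the log2(FPKM + 1) scale its change in MFN2 cKO was −0.30 in P and −0.037 in L/Z at PD 24, and 0.30 in P and 0.26 in L/Z at PD 52. The counting interval of the ratio excluded no change in both P pairs and included it in both L/Z pairs, and the difference between the ages was not tested.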

How the results depend on the processing

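With 1 library per group, no single gene's genotype change has a replicate within its stage and age, and genes below FPKM 1 rest on few reads. Of the 36 changes of the 9 genes, 21 moved with a pseudocount of 0.1, 1 with scaling by total reads on genes, and 0 with median-of-ratios scaling of the pair. A further median-of-ratios scaling of all libraries could move none, because its factors were already equal. No paired analysis by replicate number was possible because the labels give none. The pairs of one stage and age served as the block instead.

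The number of the 9 genes at least 2-fold higher was 4 in P at PD 52 with a pseudocount of 0.1 and 4 at 1.5-fold, against 2, and 4 in L/Z at PD 24 at 1.5-fold, against 2.

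For genotype, limma called 17 of all genes tested higher and 1 lower. The counts were 0 and 0 with a pseudocount of 0.1 and with no FPKM filter (unadjusted p under 0.05 in 1563 and 2542 genes), and 0 and 0 whichever pair was left out (947 to 1787). They were 3 and 0 without the block and with an additive model (398 and 1448), and 108 and 3 with limma voom, and 69 were called higher among protein-coding genes alone. Of the 126 genes of the lists, 0 were called in the fit reported, 6 higher among protein-coding genes, 8 with limma voom and 1, Socs3, with scaling by total reads.

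For stage, 2547 genes were called higher in P and 3370 lower, with 856 and 279 without the block and from 0 to 2277 and from 0 to 2635 with one pair of libraries left out. Of the 9 genes, 2 were lower in P in the fit reported, 1 with a pseudocount of 0.1 or an additive model, 0 with no FPKM filter or no block, and from 0 to 3 with one pair left out. For age, 2365 genes were called higher at PD 52 and 1040 lower. These became 1159 and 479 with a pseudocount of 0.1, and 1 and 0 without the block. The higher count was 1396 with no FPKM filter, and the lower count was 1571 among protein-coding genes and 2244 with limma voom. With one pair left out they ran from 0 to 2057 and from 0 to 1117. Of the 9 genes, 1 was lower at PD 52 in the fit reported, 0 with a pseudocount of 0.1, no FPKM filter, no block or an additive model, 2 with limma voom, and from 0 to 1 with one pair left out. The cause of these differences was not tested.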
